A study of Mus musculus with 12 samples.

Results

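TNF superfamily ligands are described here over wt and Treml4-/- bone marrow-derived macrophages at 3 times of lipopolysaccharide (LPS) treatment. The genes are Tnf, Lta, Ltb, Tnfsf9, Tnfsf10, Tnfsf12, Tnfsf13, Tnfsf13b, Tnfsf14 and Tnfsf15, taken by symbol from the 43280 genes of the deposited table, in which all 10 were found. Levels are CPM, the reads of a gene per 1000000 reads counted on all genes of that library. The 8 genes that had at least 1 CPM in at least 2 of the 12 libraries were tested, while Ltb and Tnfsf13b stayed under 1 CPM in every library and are given as levels.

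Macrophages were grown with M-CSF from bone marrow of C57BL6 mice, either wild type (wt) or deficient for the receptor gene Treml4 (Treml4-/-). In each genotype, M0 cells received vehicle (PBS) and no LPS, M1-8 h cells received LPS at 100 ng/ml for 8 h, and M1-12 h cells received it for 12 h. Each of the 6 groups held 2 biological replicates, and between 48008751 and 58500792 reads were counted on genes per library. The labels give neither the age nor the sex of the mice, nor how long M0 cells were kept in vehicle, nor whether the cultures of a genotype shared an animal.

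Treml4 had between 198 and 663 reads in the 6 wt libraries and 0 reads in the 6 Treml4-/- libraries. Each of 4 Y-linked genes had between 305 and 2056 reads in every library, and Xist at most 41 reads. All 8 macrophage markers were present, with a summed level, led by Lyz2, of 20712 to 27907 CPM at M0 and 9996 to 13416 CPM after LPS. The markers did not move together. Reads of Lyz2, Csf1r and Cd68 were lower in every LPS library than in any M0 library, and those of Fcgr1, Mertk and Itgam were higher. Fcgr1 went from between 3091 and 3323 reads at M0 to between 58438 and 72070 after LPS. Reads of Emr1 and Cd14 overlapped between M0 and LPS. These comparisons use reads that were not scaled between libraries, and whether they hold under the scalings used for the ligands was not tested. Among T cell markers, Cd3d, Cd3e, Cd3g, Cd8a and Trac had at most 3 reads in any library, as did the B cell marker Pax5 and the NK cell markers Ncr1 and Eomes. The B cell list, led by Cd79b, summed to between 4.39 and 6.48 CPM at M0 and between 0.204 and 0.727 CPM after LPS. The summed NK cell list went from 0.405 to 0.826 CPM at M0 to between 4.49 and 9.18 CPM after LPS, when Klrk1 led it. Its member Klrb1c went the other way, from between 19 and 42 reads to at most 6. At M1-8 h the NK cell list summed to 5.72 to 5.99 CPM in wt and 7.30 to 9.18 CPM in Treml4-/- cells. The dendritic cell list went from 0.728 to 1.02 CPM to between 4.35 and 9.15 CPM, led by Xcr1 after LPS, with Clec9a also higher. In that list Flt3 fell from between 20 and 35 reads to between 2 and 12, and Zbtb46 and Cd209a overlapped between M0 and LPS. The T cell list as a whole, nearly all Cd4, summed to between 3.82 and 5.30 CPM at M0 and between 0.774 and 1.46 CPM after LPS. Neutrophil markers summed to 32.5 to 85.0 CPM in wt and 87.6 to 103 CPM in Treml4-/- cells at M0. In the same order they summed to 55.3 to 59.7 and 69.2 to 89.7 CPM at M1-8 h, and to 41.6 to 52.0 and 48.5 to 60.8 CPM at M1-12 h. Mast cell or basophil markers summed to at most 0.244 CPM and fibroblast markers to at most 2.51 CPM in any library. The part of these lists in the levels of the ligands was not tested, and in bulk RNA fewer cells of a type and less RNA per cell cannot be told apart.

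Ligands of the TNF superfamily are mostly made as membrane-bound trimers, of which several are cut from the cell surface or inside the cell and then act in solution. They bind receptors of the TNF receptor superfamily, which signal through NF-kappaB and MAP kinases or, where they carry a death domain, can start apoptosis. Macrophages are a major source of TNF after Toll-like receptor stimulation, and LPS is the ligand of Toll-like receptor 4.

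In the GENCODE M21 annotation of GRCm38 the ligands are protein-coding genes on 5 chromosomes, with reads counted over exons. Tnf lies at chr17:35199381-35202007 on the minus strand, between Ltb (chr17:35194439-35196320, plus strand) and Lta (chr17:35203165-35205351, minus strand). Tnfsf9 (chr17:57105325-57107757, plus strand) and Tnfsf14 (chr17:57189492-57194177, minus strand) lie on the same chromosome. The targeted gene, Treml4 (chr17:48264295-48275360), lies 13.1 Mb from the Tnf cluster, 8.83 Mb from Tnfsf9 and 8.91 Mb from Tnfsf14. Tnfsf12 (chr11:69686250-69695849) and Tnfsf13 (chr11:69682846-69685784) are neighbours on the minus strand. Tnfsf10 lies at chr3:27317028-27342427 on the plus strand, Tnfsf13b at chr8:10006467-10039072 on the plus strand and Tnfsf15 at chr4:63727084-63745113 on the minus strand.

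The bases just before the start of the 3 clustered genes and of Tnfsf10 are shown because these neighbours had unlike levels, Tnf the highest per length after LPS and Ltb among the lowest, and because Tnfsf10 had the largest change. They are RefSeq promoter windows of GRCm38.p6 (250 bases before the start, shortened for Ltb and Tnfsf10 to the bases before the annotated gene), read on the gene's strand, with motif matches in capitals.
Tnf, chr17:35202008-35202257, minus strand: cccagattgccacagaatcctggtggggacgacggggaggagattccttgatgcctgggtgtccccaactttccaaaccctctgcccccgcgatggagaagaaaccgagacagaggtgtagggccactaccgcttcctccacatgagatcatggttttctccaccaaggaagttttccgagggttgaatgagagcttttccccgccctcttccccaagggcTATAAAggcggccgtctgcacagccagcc
Lta, chr17:35205352-35205601, minus strand: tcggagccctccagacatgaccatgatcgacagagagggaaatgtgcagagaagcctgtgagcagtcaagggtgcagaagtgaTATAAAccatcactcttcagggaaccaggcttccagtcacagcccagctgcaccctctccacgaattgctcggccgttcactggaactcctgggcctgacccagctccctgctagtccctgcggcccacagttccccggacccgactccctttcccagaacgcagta
Ltb, chr17:35194257-35194438, plus strand: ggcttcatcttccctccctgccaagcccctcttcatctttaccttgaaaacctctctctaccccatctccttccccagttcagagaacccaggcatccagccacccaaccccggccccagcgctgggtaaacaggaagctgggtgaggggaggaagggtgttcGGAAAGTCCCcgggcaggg
Tnfsf10, chr3:27316827-27317027, plus strand: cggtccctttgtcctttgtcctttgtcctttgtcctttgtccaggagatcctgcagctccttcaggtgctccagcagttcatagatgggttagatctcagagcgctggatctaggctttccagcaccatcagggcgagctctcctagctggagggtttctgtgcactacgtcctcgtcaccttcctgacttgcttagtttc

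The capitals mark TATAAA in Tnf (first base at -29, counted back from the RefSeq start) and in Lta (at -167), and a kappa B consensus in Ltb (at -87). Searched on both strands were the kappa B consensus, the interferon-stimulated response element GAAANNGAAA, the AP-1 site TGANTCA and TATAAA. Windows were found for 8 of the 10 ligands (9 windows, 2 of them for Tnfsf13b), and Tnfsf9 and Tnfsf12 had none. The kappa B consensus was in 1 of these 9 windows and in 7.25% of all 32851 windows of the same length. AP-1 sites were in 3 of the 9 (Tnfsf13, Tnfsf14 and a window of Tnfsf13b, against 6.75% of all windows), the response element in 1 (Tnfsf13b, against 2.98%) and TATAAA in 2 (against 12.4%), with no overlap between matches in the windows shown. These counts use windows of full length. Only 20 bases of the Tnfsf13 window and 84 of that Tnfsf13b window lie before the annotated gene. The matches in these windows, at -133 in Tnfsf13 and at -127 and -16 in Tnfsf13b, lie inside it. A match describes letters only, and its use in these cells was not tested.

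At M0 the ligands covered a wide range per length, and LPS reordered them. In wt M0 cells Tnf (27.2 CPM per kilobase of exon) and Tnfsf12 (26.6 CPM per kilobase) led, with replicates that overlapped, followed by Tnfsf13 at 4.43 and Tnfsf9 at 1.403 CPM per kilobase. In Treml4-/- M0 cells Tnfsf12 (25.1 CPM per kilobase) stood just above Tnf (22.5 CPM per kilobase) without overlap. Lta and Tnfsf15 were last in wt M0 cells, at 0.0351 and 0.0261 CPM per kilobase, and their replicates overlapped. At M1-8 h Tnf stood far above the others in both genotypes, at 386 CPM per kilobase in wt and 364 in Treml4-/- cells. Tnfsf10 and Tnfsf9 came next, at 26.0 and 25.1 CPM per kilobase with overlapping replicates in wt, and at 36.4 and 20.2 CPM per kilobase without overlap in Treml4-/- cells. Tnfsf15, Tnfsf12, Tnfsf14 and Lta, at 3.33 to 1.85 CPM per kilobase in wt M1-8 h cells, formed a run in which each neighbour overlapped the next. At M1-12 h the order Tnf, Tnfsf10, Tnfsf9 and Tnfsf12 was the same in both genotypes, and Tnf stood at 104 and 116 CPM per kilobase in wt and Treml4-/- cells. Of the 9 neighbouring pairs, 2 overlapped in wt and 1 in Treml4-/- cells at M1-12 h. Tnfsf13b was last in every group after LPS, between 0.0525 and 0.0713 CPM per kilobase.

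**Figure D1:**
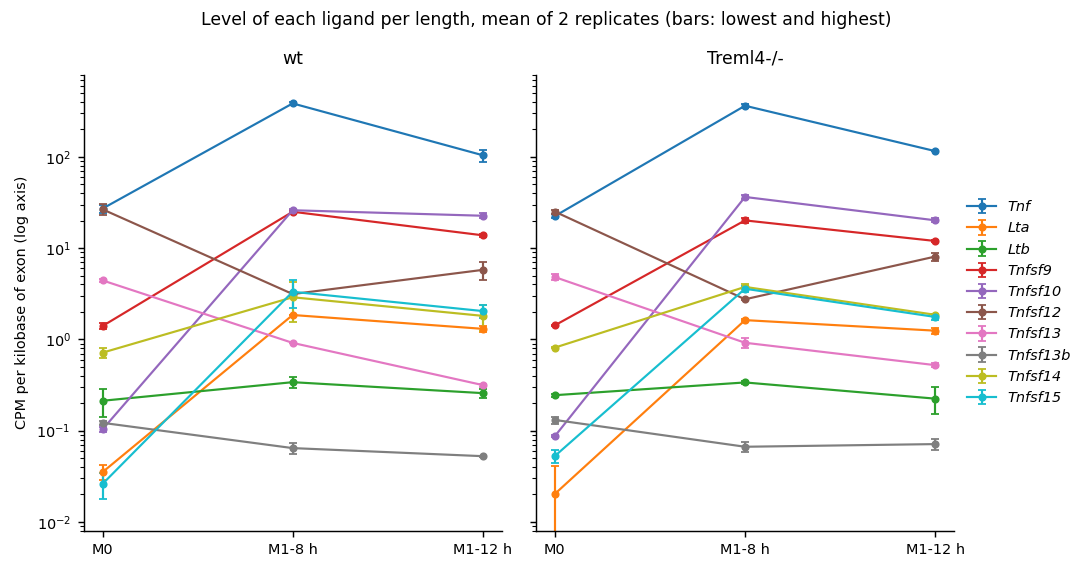
Level of each ligand in CPM per kilobase of exon (log axis) over the 3 LPS times in wt (left) and Treml4-/- cells (right), with points for the mean of 2 replicates and bars from the lowest to the highest. Tnf is the top line after LPS, Tnfsf12 falls from beside it at M0, and the bar of Lta at Treml4-/- M0 runs off the axis because 1 replicate had 0 reads.

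The first comparison asked how each ligand changed with LPS, averaged over the genotypes, by limma on log2(CPM + 1) over all 12086 genes past the filter. Calls required an adjusted p (Benjamini-Hochberg) below 0.05 together with a change of 1.4-fold or more. At M1-8 h, Tnf, Lta, Tnfsf9, Tnfsf10, Tnfsf14 and Tnfsf15 rose and Tnfsf12 and Tnfsf13 fell, and at M1-12 h the same 6 were still above M0 and the same 2 below it. Of all genes tested, 17.1% were called higher and 59.8% lower at M1-8 h, and 16.3% higher and 60.3% lower at M1-12 h. Lta, Tnfsf10 and Tnfsf15 were under 1 CPM at M0 and passed the filter only through their LPS libraries, so they had to differ, and the count of 6 is a description. The median over all genes tested was -0.72 at M1-8 h and -0.76 at M1-12 h (log2), and under median of ratios scaling it was -0.04 at both times. Under that scaling 3762 genes were called higher and 3792 lower at M1-8 h, in place of 2070 and 7225, and 3949 and 3943 at M1-12 h, in place of 1965 and 7284. The 8 ligands kept their direction and call under both scalings at both times.

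**Figure D2:**
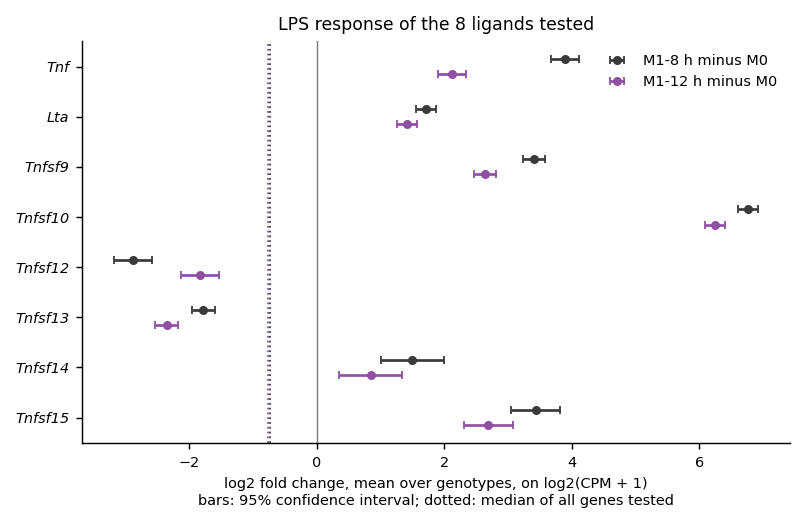
Log2 fold change on the log2(CPM + 1) scale of the 8 ligands tested, M1-8 h minus M0 and M1-12 h minus M0, as means over the genotypes with 95% confidence intervals from limma, and dotted lines at the medians of all genes tested (-0.72 and -0.76). The 6 ligands that rose lie to the right of 0 and Tnfsf12 and Tnfsf13 lie to the left of the dotted lines at both times.

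Tnf encodes the founding ligand, a cytokine that binds Tnfrsf1a and Tnfrsf1b and drives acute inflammation. At M0 it stood at 39.9 and 49.1 CPM in the wt replicates and at 34.7 and 39.0 CPM in the Treml4-/- replicates. At M1-8 h it reached 606 and 659 CPM in wt and 625 and 569 CPM in Treml4-/- cells, and at M1-12 h it was back to 146 and 196 CPM in wt and 192 and 188 CPM in Treml4-/- cells. No M1-8 h library came near any other time, and the genotypes overlapped at both LPS times. The mean over genotypes was 15.1 times M0 at M1-8 h (log2 fold change 3.89 ± 0.10 SE, limma adjusted p = 1.35e-11) and 4.43 times M0 at M1-12 h (2.12 ± 0.10, adjusted p = 1.62e-09). Relative to the median of all genes these log2 changes were 4.62 and 2.88, and under median of ratios scaling they were 4.68 and 2.96. From 8 to 12 h Tnf fell by 1.77 on the log2 scale (limma adjusted p = 1.24e-07), the largest drop of the 8 ligands, at rank 93 from the lowest of all 12086 genes.

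Lta encodes lymphotoxin alpha, which acts alone on the TNF receptors or together with the product of Ltb on Ltbr. Its reads were 3 and 2 in the wt M0 replicates and 0 and 3 in the Treml4-/- M0 replicates, at or under the floor of 3 reads. After LPS it had between 120 and 139 reads per library at M1-8 h, or 2.20 to 2.58 CPM, and between 87 and 98 reads at M1-12 h. Every LPS library stood above every M0 library, and at M1-8 h both wt values lay above both Treml4-/- values. With reads summed over genotypes, the ratio to M0 was 61.6 at M1-8 h (exact 95% interval 31.0 to 143, counting error only) and 45.1 at M1-12 h (22.7 to 105). Lta had no call between 8 and 12 h, where the log2 change of -0.30 passed the adjusted p (limma, 0.00382) but not 1.4-fold.

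Ltb, the neighbour of Tnf on its other side, encodes the membrane anchor of the lymphotoxin heterotrimer and stayed low at all 3 times. It had between 11 and 31 reads per library, at 0.212 and 0.433 CPM in wt M0, 0.585 and 0.446 CPM in wt M1-8 h and 0.345 and 0.437 CPM in wt M1-12 h cells. In Treml4-/- cells it stood at 0.387 and 0.355 CPM without LPS, 0.530 and 0.494 CPM after 8 h and 0.229 and 0.451 CPM after 12 h. The M1-8 h values lay just above the M0 values in each genotype, while M1-12 h and M0 overlapped. Without the filter its log2 difference was 0.17 at M1-8 h (limma adjusted p = 0.0605) and 0.02 at M1-12 h (adjusted p = 0.839), neither of them called. These differences are on CPM, where the median over all genes tested was -0.72 and -0.76, against -0.04 under median of ratios scaling. Ltb was not fitted under that scaling, so a rise relative to most genes was not tested.

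Tnfsf14 encodes LIGHT, which shares the receptor Ltbr with lymphotoxin and also binds Tnfrsf14. At M0 it stood at 1.49 and 1.16 CPM in wt and 1.53 and 1.48 CPM in Treml4-/- cells. At M1-8 h the wt replicates were far apart, at 7.81 and 2.90 CPM, around the Treml4-/- values of 6.51 and 7.39 CPM. At M1-12 h they again stood apart, at 4.41 and 2.28 CPM, around the Treml4-/- values of 3.37 and 3.51 CPM. Replicate 2 was the low wt library at all 3 times, although the labels do not say that a number marks a shared culture. Tnfsf14 rose with LPS by 1.502 ± 0.22 (SE) at M1-8 h (limma adjusted p = 5.20e-05) and by 0.85 ± 0.22 at M1-12 h (adjusted p = 0.00382) on the log2 scale. Its fall of 0.66 between 8 and 12 h was called (adjusted p = 0.0253), but without wt M1-8 h replicate 1 the log2 change was -0.36 (adjusted p = 0.0740) and without wt M1-12 h replicate 2 it was -0.48 (adjusted p = 0.105), and neither was a call. Leaving out Treml4-/- M1-8 h replicate 2 or either Treml4-/- M1-12 h replicate also ended the call (adjusted p = 0.0644, 0.0635 and 0.0578).

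Tnfsf9 and Tnfsf15 are ligands of costimulatory receptors of T cells, Tnfrsf9 and Tnfrsf25. Tnfsf9 went from between 1.67 and 1.95 CPM in the 4 M0 libraries to 30.9 and 33.8 CPM in wt and 24.6 and 27.4 CPM in Treml4-/- cells at M1-8 h. At M1-12 h it stood at 17.2 and 18.5 CPM in wt and 15.7 and 15.2 CPM in Treml4-/- cells. The genotypes overlapped at M0 and did not overlap at either LPS time, with wt higher. The rise was 16.0-fold in mean CPM at M1-8 h (log2 fold change 3.41 ± 0.08, limma adjusted p = 5.74e-12) and 9.13-fold at M1-12 h (2.64 ± 0.08, adjusted p = 4.45e-11), with log2 changes of 3.98 and 3.26 under median of ratios scaling. Tnfsf9 shares 192 of its exon bases (14.9%) with the antisense transcript Gm11110, which had 1.42 to 1.72 CPM at M0 and 4.67 to 11.0 CPM after LPS in group means, and reads of the pair can be told apart only if strand was used in counting.

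Tnfsf15 had 6 and 3 reads in the wt M0 replicates and 10 and 8 in the Treml4-/- M0 replicates. At M1-8 h it stood at 7.41 and 14.9 CPM in wt and 11.2 and 12.9 CPM in Treml4-/- cells, and at M1-12 h at 5.70 and 8.00 CPM in wt and 6.40 and 5.42 CPM in Treml4-/- cells. All LPS libraries lay far above M0, and the wt replicates enclosed the Treml4-/- ones at M1-8 h. The ratio of summed reads to M0 was 88.7 at M1-8 h (exact 95% interval 60.8 to 135, counting error only) and 48.2 at M1-12 h (33.0 to 73.4). The log2 change on the scale tested was 3.44 ± 0.17 and 2.69 ± 0.17 (SE), with limma adjusted p = 3.63e-09 and 2.84e-08. Tnfsf15 also passed the filter only through its LPS libraries and had to differ from M0, so these p-values are a description.

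Tnfsf10 encodes TRAIL, a ligand of the death receptor Tnfrsf10b that is induced by interferons in many cells, and it had the largest change of the ligands tested. In M0 cells it had between 23 and 30 reads, or 0.449 to 0.579 CPM. At M1-8 h it stood at 132 and 142 CPM in wt and at 181 and 202 CPM in Treml4-/- cells, and at M1-12 h at 112 and 127 CPM in wt and 112 and 101 CPM in Treml4-/- cells. The genotypes did not overlap at any time, with wt above Treml4-/- cells by a narrow margin at M0 and at M1-12 h, and below them at M1-8 h. At M0 this rested on 30 and 26 reads in wt against 23 and 24 in Treml4-/- cells. Of all genes tested, 28.8%, 51.9% and 43.1% did not overlap at M0, M1-8 h and M1-12 h. Mean CPM over genotypes was 328 times M0 at M1-8 h (log2 fold change 6.76 ± 0.07, limma adjusted p = 2.26e-14) and 225 times M0 at M1-12 h (6.24 ± 0.07, adjusted p = 3.42e-14). By log2 fold change Tnfsf10 ranked 47 from the top of 12086 genes at M1-8 h and 62 at M1-12 h. Because Tnfsf10 passed the filter only through its LPS libraries, it had to differ from M0. These p-values and ranks are therefore a description. The fall between 8 and 12 h of 0.52 on the log2 scale (limma adjusted p = 8.87e-05) lay just past 1.4-fold, and it was no longer called under median of ratios scaling (-0.47), without wt M1-12 h replicate 1 (-0.48) or without Treml4-/- M1-8 h replicate 2 (-0.48). In ratios of mean CPM, M1-12 h stood at 0.870 of M1-8 h in wt and at 0.555 in Treml4-/- cells, and the difference between these ratios was not tested.

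Tnfsf12 encodes TWEAK, the ligand of Tnfrsf12a, and Tnfsf13 encodes APRIL, a B cell survival ligand that binds Tnfrsf13b and Tnfrsf17. Tnfsf12 stood at 34.8 and 45.9 CPM in wt M0 and 36.1 and 40.1 CPM in Treml4-/- M0 cells, and fell to 5.05 and 4.47 CPM in wt and 4.14 and 4.21 CPM in Treml4-/- cells at M1-8 h. At M1-12 h it was partly back, at 10.7 and 6.83 CPM in wt and 11.1 and 13.5 CPM in Treml4-/- cells. The groups of the 3 times did not overlap in either genotype. Mean CPM was 8.78 times lower than M0 at M1-8 h (log2 fold change -2.87 ± 0.13, limma adjusted p = 1.81e-09) and 3.73 times lower at M1-12 h (-1.83 ± 0.13, adjusted p = 8.77e-08). Relative to the median of all genes the log2 changes were smaller, at -2.15 and -1.08, and under median of ratios scaling they were -2.13 and -1.02. Its rise of 1.04 ± 0.13 between 8 and 12 h (limma adjusted p = 5.37e-05) was the only called rise among the 8 ligands in that interval.

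Tnfsf13 kept falling instead. It went from 6.92 and 7.59 CPM in wt M0 and 8.43 and 7.35 CPM in Treml4-/- M0 cells to 1.51 and 1.49 CPM in wt and 1.69 and 1.32 CPM in Treml4-/- cells at M1-8 h. At M1-12 h only 26 and 27 reads were left in wt (0.499 and 0.536 CPM) and 43 and 47 in Treml4-/- cells (0.896 and 0.816 CPM). Within a genotype no 2 times overlapped, and at M1-12 h wt lay below Treml4-/- cells. Against M0 its log2 fold change came to -1.78 ± 0.08 at M1-8 h and -2.35 ± 0.08 at M1-12 h (limma adjusted p = 1.73e-09 and 1.80e-10), or 5.04 and 11.0 times lower in mean CPM. Relative to the median of all genes these changes were -1.05 and -1.60, and under median of ratios scaling -1.15 and -1.75. The read-through gene Tnfsfm13 shares 731 exon bases (48.3%) with Tnfsf12 and 983 (60.0%) with Tnfsf13 and has no row of its own in the table, and the antisense Tnfsf13os shares 221 bases (13.5%) with Tnfsf13. How reads on these shared bases were assigned is not given in the sources used here, so the levels of both genes are uncertain to that extent.

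Tnfsf13b encodes BAFF, the other B cell survival ligand, and had between 18 and 48 reads per library. It stood at 0.887 and 0.787 CPM in wt M0 and 0.978 and 0.823 CPM in Treml4-/- M0 cells, against 0.384 and 0.501 CPM in wt and 0.513 and 0.403 CPM in Treml4-/- cells at M1-8 h. At M1-12 h it stood at 0.364 and 0.357 CPM in wt and 0.562 and 0.417 CPM in Treml4-/- cells. All LPS libraries lay below all M0 libraries. On log2(CPM + 1) without the filter the differences were -0.37 at M1-8 h and -0.39 at M1-12 h (limma adjusted p = 0.000229 and 0.000141), under 1.4-fold on that scale. On the deposited log2 CPM, an alternative chosen after seeing the data, they were -0.95 and -1.04 and were called (limma adjusted p = 0.00353 and 0.00191). The median over all genes tested was also negative, at -0.72 and -0.76 on log2(CPM + 1). Under median of ratios scaling that median was -0.04 at both times. Tnfsf13b was not fitted under that scaling, so a fall beyond that of most genes was not tested.

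**Figure D3:**
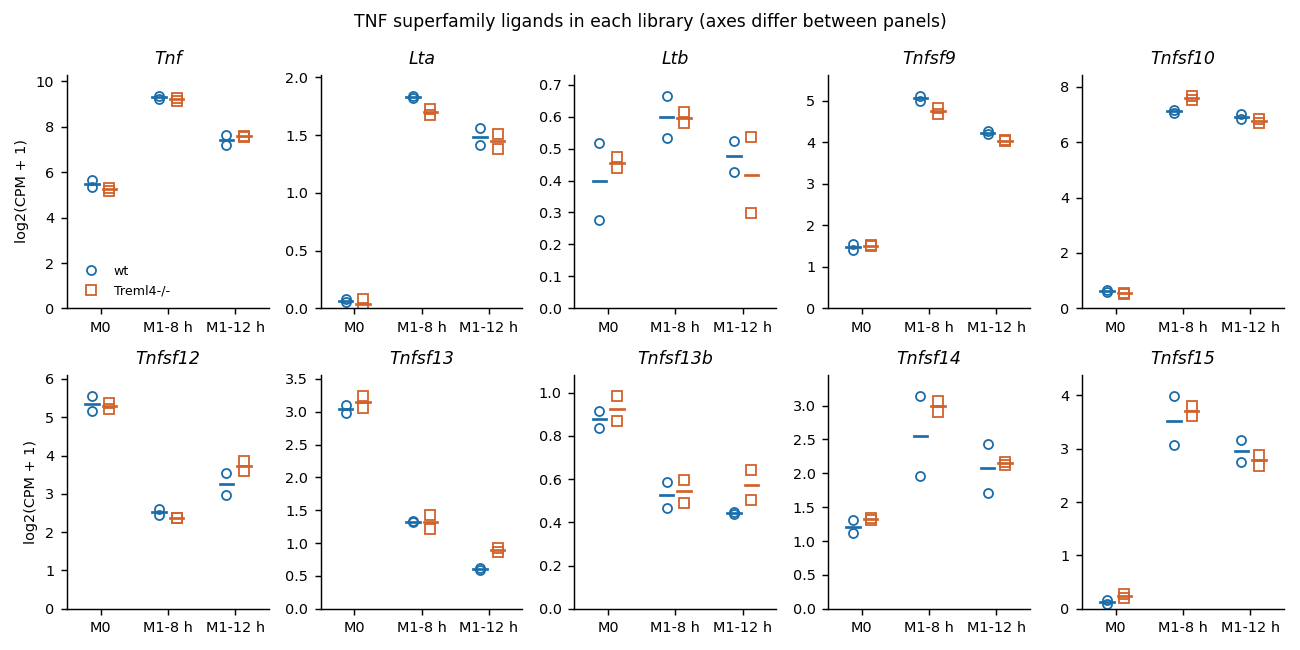
Level of each of the 10 ligands as log2(CPM + 1) in every library, grouped by LPS time, with open circles for wt, open squares for Treml4-/- and bars for the mean of 2 replicates, and an axis of its own for each panel. Tnf, Tnfsf9 and Tnfsf10 rise and stay above M0, Tnfsf12 and Tnfsf13 fall, and the wt replicates of Tnfsf14 and Tnfsf15 spread widely at M1-8 h.

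Between 8 and 12 h of LPS, 7 of the 8 ligands tested changed, with Tnfsf12 higher and Tnf, Tnfsf9, Tnfsf10, Tnfsf13, Tnfsf14 and Tnfsf15 lower, while Lta missed the fold threshold. Of all genes tested, 13.5% were called higher and 18.7% lower. Besides Tnf, the falls on the log2(CPM + 1) scale ran from 0.52 in Tnfsf10 to 0.77 in Tnfsf9, with 0.57 in Tnfsf13. This order depends on the scale, since in mean CPM Tnfsf13 was 2.19 times lower and Tnfsf9 1.75 times lower, and on the deposited log2 CPM their changes were -1.16 and -0.80. Among the falls, the calls of Tnfsf10 and Tnfsf14 rest on single libraries as given above, and the number of ligands called ran from 5 to 7 when each library was left out in turn.

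The second comparison asked whether the ligands differed between wt and Treml4-/- cells at each time, as wt minus Treml4-/-. No ligand was called by limma at any of the 3 times, against (in the order M0, 8 h and 12 h) 0.0993%, 0.091% and 0.132% of all genes tested, and none by voom on the recovered reads. At an unadjusted p under 0.05 there were 0 ligands at M0, 2 at M1-8 h (Tnfsf9 and Tnfsf10) and 2 at M1-12 h (Tnfsf12 and Tnfsf13), beside 3.35%, 21.01% and 7.55% of all genes. Replicates of the genotypes did not overlap for 3 of the 8 ligands at M0 and for 4 at each LPS time, while 28.8%, 51.9% and 43.1% of all genes did not overlap. The shares without overlap lie near the background. On CPM, the 2 of 8 ligands at an unadjusted p under 0.05 at M1-12 h are a larger share than among all genes. This excess was not tested, and neither ligand passed the adjustment. At each time 2 against 2 replicates allow an exact two-sided permutation p of 0.333 at the lowest.

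Tnfsf10 at M1-8 h had the smallest p of these differences. It stood at 137 ± 6.6 CPM in wt and 192 ± 14.8 CPM in Treml4-/- cells (SD, n = 2), a log2 difference of -0.48 with a 95% interval of -0.70 to -0.26. Its limma adjusted p was 0.110, and it lay just under 1.4-fold. Without Treml4-/- M1-8 h replicate 1 the difference was -0.56 and was called (adjusted p = 0.0357), in a fit where 599 genes were called in place of 11. The time course of Tnfsf10 differed between genotypes by -0.56 ± 0.14 (SE) from M0 to M1-8 h, which did not pass (limma adjusted p = 0.729). At M0 and at M1-12 h its differences were 0.08 and 0.16 in the other direction, with adjusted p of 1 and 0.808.

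For Tnfsf9, the other ligand with an interval off 0 at M1-8 h, wt stood at 32.4 ± 2.0 CPM and Treml4-/- at 26.0 ± 1.9 CPM (SD, n = 2), a log2 difference of 0.31 with an interval of 0.06 to 0.55 and a limma adjusted p of 0.179. At M1-12 h its difference was 0.19 (-0.05 to 0.44). Tnfsf12 at M1-12 h stood at 8.77 ± 2.7 CPM in wt and 12.3 ± 1.7 CPM in Treml4-/- cells (-0.46, interval -0.88 to -0.05). Tnfsf13 at the same time stood at 0.517 ± 0.026 and 0.856 ± 0.056 CPM (-0.29, interval -0.55 to -0.03), and both genes had a limma adjusted p of 0.606. The difference of Tnfsf13 depends on the scale, since in mean CPM wt was 1.65 times lower. On the deposited log2 CPM used directly it was -0.72 (limma adjusted p = 0.300). Neither gene passed the test on either scale.

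Tnf itself differed by 0.26 at M0 (95% interval -0.05 to 0.57), 0.09 at M1-8 h (-0.22 to 0.39) and -0.17 at M1-12 h (-0.47 to 0.14). The interval at M0 reached past 1.4-fold, so a difference of that size could not be told from none. Tnfsf14 and Tnfsf15 had the widest intervals, from -1.14 to 0.26 for Tnfsf14 and -0.71 to 0.37 for Tnfsf15 at M1-8 h. The difference averaged over the 3 times gave no called ligand, against 0.414% of all genes called. At an unadjusted p under 0.05 there was 1 ligand of 8 (Tnfsf9, 0.16), beside 20.1% of all genes. The difference in LPS response between genotypes also gave no called ligand at M1-8 h or M1-12 h, against 0.00827% of all genes called at each time. At an unadjusted p under 0.05 there were 1 and 0 ligands of 8, beside 6.67% and 3.82% of all genes.

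**Figure D4:**
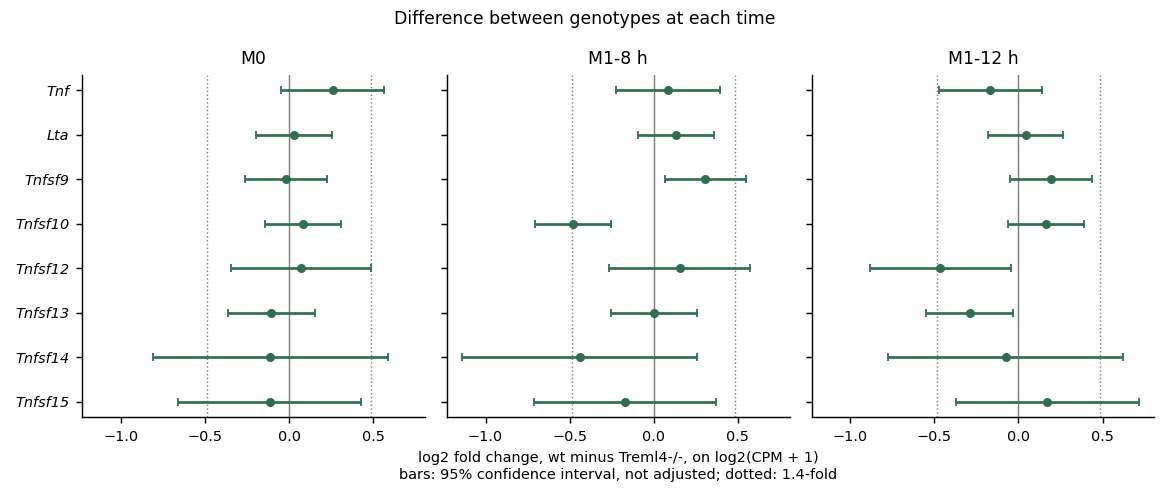
Difference between genotypes (wt minus Treml4-/-) in log2 fold change on log2(CPM + 1) for the 8 ligands tested in each of the 3 conditions, with unadjusted 95% confidence intervals from limma and dotted lines at 1.4-fold. The intervals of Tnfsf9 and Tnfsf10 at M1-8 h and of Tnfsf12 and Tnfsf13 at M1-12 h leave out 0, and the other 20 intervals hold it.

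Of 8 other ligands of the superfamily in the table, only Tnfsf4, the ligand of OX40, passed the filter. It went from 0.273 CPM in wt M0 and 0.476 CPM in Treml4-/- M0 cells to 1.57 and 1.34 CPM at M1-8 h and was called higher at both LPS times (log2 fold change 0.84 and 0.49, limma adjusted p = 1.28e-07 and 1.68e-05). Its group means were under 1 CPM at M0 and it passed the filter only through M1-8 h libraries, so it had to differ there and the calls are a description. Cd40lg and Tnfsf11 had 0 reads in all libraries, and Fasl, Cd70, Eda, Tnfsf18 and Tnfsf8 had at most 1, 2, 5, 12 and 62 reads.

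Of 14 receptors of the 10 ligands, 10 passed the filter, and 2 were called higher and 3 lower at M1-8 h, beside 17.1% and 59.8% of all genes (median log2 fold change 0.02, against -0.72 over all genes). Under median of ratios scaling 6 were higher and 3 lower, beside 3762 and 3792 of the 12086 genes, and Ltbr went from -0.18 to 0.61 on the log2 scale. Tnfrsf1a, a receptor of TNF, rose from 299 and 305 CPM at M0 in wt and Treml4-/- cells to 715 and 614 CPM (log2 fold change 1.13, limma adjusted p = 1.52e-08). Tnfrsf14, the LIGHT receptor, rose from 19.2 and 17.7 CPM to 38.1 and 39.3 CPM (1.03). Tnfrsf22 and Tnfrsf23, decoy receptors for TRAIL, fell by 1.57 and 1.69, and Tnfrsf13b, a receptor of APRIL and BAFF, fell by 1.38 on the log2 scale. At M1-12 h 4 were called higher and 2 lower, beside 16.3% and 60.3% of all genes (median 0.07, against -0.76), or 5 and 1 under median of ratios scaling, beside 3949 and 3943 genes. Named for their values, Tnfrsf9, the receptor of the Tnfsf9 product, reached 10.1 and 8.38 CPM from 1.00 and 1.27 CPM at M0 (2.26), and Tnfrsf1b reached 2936 and 2837 CPM from 1569 and 1407 CPM (0.96). The receptor of Tnfsf15, Tnfrsf25, had at most 2 reads in any library.

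Of 5 genes for processing and shedding, 2 were called higher and 2 lower at M1-8 h, beside 17.1% and 59.8% of all genes (median log2 fold change 0.12, against -0.72). Under median of ratios scaling, with 3762 and 3792 genes called, 3 were higher and 2 lower, Adam17 among the higher (0.92 in place of 0.12). Rhbdf2, which carries the TNF sheddase Adam17 to the cell surface, rose by 2.06, and its relative Rhbdf1 fell by 1.93 on the log2 scale. Rhbdf1 stood at 4.90 and 4.82 CPM at M0 in wt and Treml4-/- cells and under 1 CPM after LPS. It passed the filter only through its M0 libraries, so it had to differ, and its call as lower is a description. Furin, a protease that cuts several ligands inside the cell, rose by 1.09, and the sheddase Adam10 fell by 1.67, while Adam17 stood at 379 and 334 CPM at M0 and 354 and 415 CPM at M1-8 h. At M1-12 h 1 was called higher and 2 lower, beside 16.3% and 60.3% of all genes (median -0.35, against -0.76), or 3 and 2 under that scaling. Of 7 genes that act on the decay or stability of Tnf mRNA, 3 were called higher and 2 lower at M1-8 h, beside 17.1% and 59.8% of all genes, and again at M1-12 h, beside 16.3% and 60.3%. The medians of these genes were -0.18 and -0.20 at the 2 times, against -0.72 and -0.76 over all genes. Under median of ratios scaling, with about as many genes called higher as lower, the counts were 5 and 1 at M1-8 h, with Rc3h1 going from -0.29 to 0.49 and Elavl1 from -0.18 to 0.60 and Zfp36l1 no longer called (-0.33), and 5 and 0 at M1-12 h. Zfp36, which binds and destabilizes Tnf mRNA, rose from 191 and 171 CPM to 1213 and 1176 CPM at M1-8 h (2.71, limma adjusted p = 5.03e-11). The nuclease gene Zc3h12a rose by 1.097 and Rc3h2 by 0.56, whereas Zfp36l2 fell by 2.52 and Zfp36l1 by 1.09.

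No gene of these lists was called between genotypes at any time under either scaling, and the lists were chosen with earlier results of these data known.

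Over the 12 libraries, which share their LPS times, the ligands are described by their correlation with each other. Tnfsf9 and Lta had a Pearson r of 0.997 on log2(CPM + 1), Tnfsf9 and Tnfsf15 0.988, and Tnf and Tnfsf10, whose falls after 8 h differed in size, 0.915. Tnfsf12 ran against Tnf with an r of -0.973, and Tnfsf13 with -0.750. Outside the family, the genes most like Tnf over the 12 libraries were Rmdn3 (0.998), Pkp4 (0.996) and Rab43 (0.996). Those most like Tnfsf10 were Enpp4, Parp14 and Slfn8 (each 0.999), and those most like Tnfsf12 were Zfp775 (0.996), Flcn (0.995) and Plekhm2 (0.994).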

How the data were processed

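RNA-seq libraries of 12 macrophage cultures (6 groups of 2) were analysed. The authors deposited log2 CPM values per gene, that is log2 counts per library size (CPM) with a prior count of 0.25 reads added. The submitters' processing notes name STAR and the mm10 genome, the study's methods name Subread for counting, and whether strand was used in counting is not given in the sources used here. From these log2 values whole reads were recovered for 100% of entries within 0.01 reads (largest deviation on recomputing 5.15e-14), giving 48008751 to 58500792 reads per library, so that 1 read was 0.0171 to 0.0208 CPM and the floor of 3 reads 0.0513 to 0.0625 CPM. Intervals and floors cover counting error only.

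Because the values are log2 CPM, the test was limma 3.58.1 (R 4.3.3) with a trend on log2(CPM + 1), after a filter of at least 1 CPM in at least 2 libraries (12086 genes), with 1 mean per group, Benjamini-Hochberg adjustment over all genes tested and calls at an adjusted p under 0.05 and at least 1.4-fold. Fold changes on this scale understate changes of low genes. The script was tested on simulated data. P-values measure only the spread between these samples, which may be technical. Tables and figures used Python 3.11.15, numpy 2.4.6, pandas 2.3.3, scipy 1.17.1 and matplotlib 3.10.9. Gene positions and exon lengths are from GENCODE M21 (GRCm38) and promoter windows from RefSeq (GRCm38.p6).

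The ligands and the lists of receptors, other ligands, processing genes, mRNA decay genes and cell type markers were chosen with earlier results of these data known. Every ligand is named, and of each other list up to 4 genes per direction with the largest called change at M1-8 h. Tnfrsf9, Tnfrsf1b and genes that changed with the scaling were named after their values were seen. For Tnf, Tnfsf10 and Tnfsf12 the 3 genes with the highest Pearson r over the libraries are given. The F4/80 marker was found under its older symbol Emr1. Alternatives were a pseudocount of 0.1 CPM, no filter, the deposited log2 values used directly, median of ratios scaling, voom on the recovered reads, a replicate block, only the libraries of a comparison, and leaving out each library. The deposited log2 values without a filter were added after seeing the data.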

Additional observations from a re-analysis of the deposited data

How the results depend on the processing

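For the ligands, the LPS calls at M1-8 h and M1-12 h kept their direction and side of the threshold in 168 of 168 results under the alternatives at each time. Between 8 and 12 h 157 of 168 did, and for wt against Treml4-/- 155 of 160 at each time. In the comparisons with M0, Lta, Tnfsf10 and Tnfsf15 had to differ because of the filter, so their part in the 168 is a description. Between 8 and 12 h Tnfsf14 was not called without the filter (adjusted p = 0.0820), with only the libraries of the comparison (0.0504) or on the deposited log2 CPM without a filter (0.0612), and the cause was not tested. Counts over all genes moved more. On the deposited log2 CPM without a filter, 5875 genes were called between 8 and 12 h in place of 3885, 8 between genotypes at M1-12 h in place of 16, and 0 in place of 1 for each difference in LPS response. Used directly with the filter, the deposited values also gave 0 for each difference in response, as did voom, which gave 10 at M1-12 h between genotypes. Without the filter, genes called between genotypes were 7 at M1-8 h in place of 11, 7 at M1-12 h and 17 in place of 50 for the mean over times, and 2 for the difference in response at M1-8 h. With only the libraries of the comparison they were 7 at M0 in place of 12, 5 at M1-8 h and 8 at M1-12 h. A pseudocount of 0.1 CPM gave 78 for the mean over times. Under median of ratios scaling, genotype calls at M1-8 h were 9 higher and 6 lower in place of 4 and 7, at M1-12 h 12 and 8 in place of 6 and 10, and for the mean 26 and 24 in place of 10 and 40, and Tnfsf9 at M0 went from -0.02 to 0.00554.

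Leaving out each library in turn gave between 7 and 220 genes called between genotypes at M0 (220 without wt M0 replicate 1), 8 and 599 at M1-8 h (599 without Treml4-/- M1-8h replicate 1), 6 and 79 at M1-12 h (79 without wt M1-12 h replicate 1), 21 and 183 for the mean over times, and 1 to 3 and 1 to 33 for the differences in response at M1-8 h and M1-12 h. Ligands called between genotypes at M1-8 h ran from 0 to 1, the 1 being Tnfsf10. Uncalled log2 genotype differences changed sign within these ranges: at M0, Lta -0.0104 to 0.0684, Tnfsf9 -0.0888 to 0.0529 and Tnfsf12 -0.12 to 0.27. At M1-8 h they were Tnfsf13 -0.11 to 0.11, Tnfsf14 -1.03 to 0.15 and Tnfsf15 -0.63 to 0.29. At M1-12 h they were Tnf -0.38 to 0.0444, Lta -0.0287 to 0.11, Tnfsf14 -0.44 to 0.29 and Tnfsf15 -0.0406 to 0.39. A group left with 1 library was assumed to vary like the others.

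Whether equal replicate numbers mark a shared culture is not stated, and the samples were not treated as paired, since not every correlation of their deviations from the group means was over 0.1. These were 0.0625 to 0.41 within wt, -0.27 to 0.46 within Treml4-/- and -0.26 (M0), 0.30 (8 h) and 0.0563 (12 h) between genotypes. With a replicate block 9297 genes were called at M1-8 h and 9252 at M1-12 h against M0, 3889 between 8 and 12 h, 12, 12 and 15 between genotypes at M0, M1-8 h and M1-12 h, 55 for the mean over times and 1 for each difference in response, and no call of a ligand changed. With a replicate block within each genotype 9299, 9252 and 3894 genes were called in the 3 LPS comparisons and no call of a ligand changed, while the adjusted p of Tnfsf14 between 8 and 12 h was 0.00279 in place of 0.0253. Depth limits Lta and Tnfsf15 at M0 and Ltb and Tnfsf13b throughout, where few reads were counted.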
